A study of Homo sapiens with 6 samples.

Results

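The genes described here encode the proteasome: its subunits, activators, inhibitor and assembly chaperones. They were chosen by symbol, as the protein-coding genes whose symbols begin with PSMA, PSMB, PSMC, PSMD, PSME, PSMF or PSMG and end with a number, which gives 48 of the 60651 gene rows. Their RNA was measured by RNA sequencing in MDA-MB-231 cells, an established human triple-negative breast cancer line labelled as wild type. The cells received the solvent control DMSO, 75 µg/ml AF-EAE or 150 µg/ml AF-EAE for 24 h, with 2 libraries per group and 6 in all. AF-EAE is the fraction of the herb Antenoron filiforme that dissolves in ethyl acetate, a mixture of compounds that the labels do not list. Nothing says whether the libraries of a group came from separate cultures, so the p-values reflect only the spread of these libraries, which may be technical. PSMC3IP, a meiotic recombination factor, and PSME3IP1 share the first letters but end otherwise and were not counted as members. PSMC3IP fell at 75 µg/ml (log2 fold change -0.43 by edgeR's quasi-likelihood test, with a p of 0.00559 adjusted over all genes) and stood at 0.06 at 150 µg/ml (adjusted p = 0.688).

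The proteasome is the barrel-shaped protease that degrades proteins tagged with ubiquitin. Its core particle stacks rings of alpha subunits, encoded by PSMA genes, around rings of beta subunits, encoded by PSMB genes, and the beta subunits PSMB5, PSMB6 and PSMB7 carry the constitutive peptidase sites. Interferon-gamma induces PSMB8, PSMB9 and PSMB10, which take the places of PSMB5, PSMB6 and PSMB7 in newly built particles and form the immunoproteasome, known for producing peptides for MHC class I presentation. The regulatory cap recognises ubiquitin, removes it and unfolds the substrate. It consists of a base with a ring of ATPases (PSMC genes) and scaffold or receptor subunits, and a lid (both PSMD genes). PSME genes encode alternative activators, PSMF1 an inhibitor, and PSMG genes the chaperones that assemble the core. When proteasome activity is blocked, the transcription factor NFE2L1 is known to be processed to its active form and to raise the transcription of proteasome subunit genes.

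Counts in genes came to between 15621103 and 17113722 per library, which puts a floor of 3 counts at 0.175 to 0.192 CPM (gene counts on a common scale for all libraries, here set by TMM, edgeR's normalization). The 2 libraries of a group correlated at 0.990 to 0.991 over log2 CPM across genes. Of 5 genes known to be high in this line (VIM, CD44, CAV1, AXL and KRT18), all had means from 185.2 to 1210 CPM in DMSO, and all fell at both doses. ESR1, PGR, CDH1 and KRT5 were at 0.849 CPM or less in every group's mean, EPCAM stood at 3.88 to 5.27 CPM and ERBB2 at 84.3 to 98.1 CPM. ESR1 was called higher at both doses (adjusted p = 0.00563 and 0.0136 by edgeR), at means of 0.849 and 0.654 CPM, from a mean of 0.129 CPM in DMSO, which is under the floor of 3 counts. The summed level of 10 leukocyte markers was 0.262 to 0.544 CPM per library.

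Several members were listed at or near 0 along with genes that surround them, which bears on the immunoproteasome in particular. PSMB8 (chr6:32840717-32844703) held 1 count over the 6 libraries, and PSMB9 (chr6:32844136-32859585) held 34 counts, all of them in DMSO replicate 1. Of the 35 other protein-coding genes within 500 kb of either gene, 1 reached a mean of 1 CPM (2.86%), against 58.8% of all 19885 protein-coding genes. RPS18, a ribosomal protein gene on chromosome 6 that every cell uses, held 20 counts, while the median of 31 RPS genes was 29675 counts. TUBB, DAXX, TAP1 and TAP2, also in this part of chromosome 6, held 30, 21, 3 and 3 counts. PSMB3 (chr17:38752736-38764231), a structural beta subunit of every core particle, held 4 counts, and its neighbours PCGF2, CISD3, MLLT6, PIP4K2B and CWC25 held 0 to 3, while RPL23 and LASP1 nearby held 56769 and 77462. The low values of PSMB8, PSMB9 and PSMB3 therefore give no measure of their expression here, and no fold is given for them. The alpha subunit genes PSMA1, PSMA2 and PSMA6 were counted but lay far under the other alpha genes, as given with their values. PSMA8, a testis paralogue, and PSMB11, a thymus paralogue, had no count in any library. These 5 genes (PSMA8, PSMB3, PSMB8, PSMB9 and PSMB11) did not pass the filter on low counts, and the other 43 members were tested.

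Most tested proteasome genes did not pass the test at either dose, and of those that did more fell than rose, a balance that turned round with total counts. At 75 µg/ml 2 of the 43 tested members rose against DMSO, 8 fell and 33 did not pass the test (adjusted p under 0.05). Over all 15589 genes tested, 38.6% passed in this comparison, 19.2% higher and 19.4% lower. At 150 µg/ml 2 members rose, 15 fell and 26 did not pass, against a background of 51.5% of genes called, 25.8% higher and 25.7% lower. The members called were thus 23.3% and 39.5% of those tested. The median log2 fold change of the members was -0.04 at 75 µg/ml and -0.09 at 150 µg/ml, beside 0.01 and 0.03 over all genes tested. The median size of a change, whatever its sign, was 0.105 for the members and 0.278 for all genes at 75 µg/ml, beside 0.119 and 0.378 at 150 µg/ml. Both comparisons share the DMSO libraries. The background includes genes with few counts, whose changes are less precise.

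The direction of these small changes is relative to the scaling of the libraries. With total counts in place of TMM, the median of all genes moved to 0.14 at 75 µg/ml and 0.22 at 150 µg/ml, and that of the members to 0.09 and 0.10. The calls then became 10 higher and 3 lower at 75 µg/ml, and 14 higher and 5 lower at 150 µg/ml. The members' median minus that of all genes was -0.05 at 75 µg/ml and -0.12 at 150 µg/ml under both scalings. Since the scaling moves every gene by a like amount, this gap could hardly differ between them. With a filter of 5 CPM in 2 libraries it was smaller, at -0.02 and -0.08. Under every alternative fit that was run, each library left out included, the calls that held were those of PSMD2, PSME3 and PSMG1 at 75 µg/ml and of PSMA1, PSMD1, PSMD2, PSME3, PSMG1 and PSMG4 at 150 µg/ml. In bulk RNA, fewer cells of a kind and less RNA per cell cannot be told apart.

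**Figure D1:**
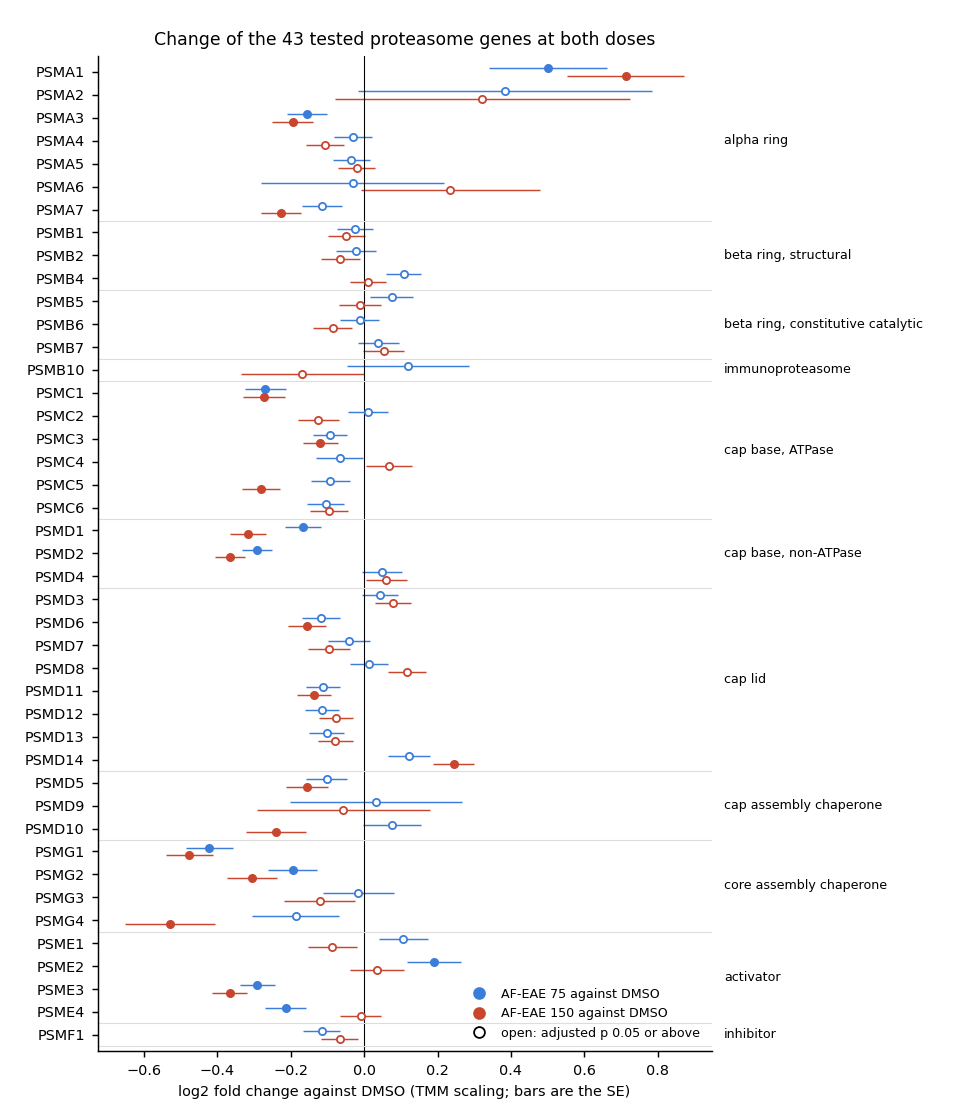
Log2 fold change (x axis, TMM scaling) of each of the 43 tested proteasome genes (y axis, grouped by role) at 75 µg/ml (blue) and 150 µg/ml (red) AF-EAE against DMSO, with the standard error as bars and filled points where the adjusted p is under 0.05. Most points lie within 0.2 of 0, PSMG1, PSMG4, PSMD2 and PSME3 lie lowest at 150 µg/ml, and PSMA1 lies highest.

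None of the 3 constitutive catalytic genes passed the test at either dose. PSMB5, the chymotrypsin-like subunit and the main target of clinical proteasome inhibitors, was at 165.7 and 152.8 CPM in DMSO, 166.4 and 169.2 at 75 µg/ml, then 165.3 and 150.9 at 150 µg/ml. PSMB6, the caspase-like subunit, was at 157.0 and 146.8 CPM in DMSO, 151.2 and 150.1 at 75 µg/ml, then 144.4 and 141.9 at 150 µg/ml. PSMB7, the trypsin-like subunit, was at 351.6 and 322.7 CPM in DMSO, 358.3 and 334.2 at 75 µg/ml, then 365.1 and 334.8 at 150 µg/ml. PSMB5 was highest at 75 µg/ml, where both libraries lay just above those of the other groups, while 150 µg/ml and DMSO overlapped. All groups overlapped for PSMB7, and for PSMB6 the 150 µg/ml libraries lay under both DMSO libraries by a few CPM. At 150 µg/ml the log2 fold change was -0.01 for PSMB5, with a 95% interval of -0.13 to 0.11 from its standard error. It was -0.09 for PSMB6 (-0.20 to 0.03) and 0.05 for PSMB7 (-0.06 to 0.17), and changes within these bounds are not excluded. With total counts PSMB5 and PSMB7 passed as higher at both doses, at 0.18 and 0.24 at 150 µg/ml, beside the all-gene median of 0.22 under that scaling.

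Among the structural beta genes, whose subunits sit in the beta rings but carry no peptidase site, PSMB1, PSMB2 and PSMB4 did not pass the test at either dose. PSMB2 was at 203.9 and 198.7 CPM in DMSO, 189.2 and 207.1 at 75 µg/ml, then 195.6 and 189.3 at 150 µg/ml. PSMB1 was at 225.5 and 224.1 CPM in DMSO, 222.0 and 220.2 at 75 µg/ml, then 224.2 and 210.7 at 150 µg/ml. Their log2 fold changes at 150 µg/ml were -0.06 and -0.05 (adjusted p = 0.332 and 0.437 by edgeR). PSMB4 was at 315.8 and 320.6 CPM in DMSO, 351.2 and 334.3 at 75 µg/ml, then 330.9 and 309.9 at 150 µg/ml, with both 75 µg/ml libraries highest. It stood at 0.11 at 75 µg/ml (adjusted p = 0.0945) and was called higher there with a filter of 5 CPM in 2 libraries (0.13) and with total counts (0.23).

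In the alpha ring, which gates entry to the core, PSMA3 and PSMA7 fell and PSMA1 rose. PSMA3 fell by 0.16 on the log2 scale at 75 µg/ml (adjusted p = 0.0325 by edgeR) and by 0.20 at 150 µg/ml (adjusted p = 0.00634). PSMA7, the alpha gene with the highest level, fell by 0.23 at 150 µg/ml (adjusted p = 0.00198) after -0.12 at 75 µg/ml (adjusted p = 0.103). With total counts neither passed at 150 µg/ml, at -0.01 and -0.04, and the calls of PSMA3 were lost without DMSO replicate 1 (-0.13) or 75 µg/ml replicate 2 (-0.10) at 75 µg/ml and without 150 µg/ml replicate 2 (-0.16) at 150 µg/ml. PSMA4 and PSMA5 did not pass at either dose. PSMA1 (chr11:14504874-14643635) was at 7.38 and 6.48 CPM in DMSO, 8.86 and 10.8 at 75 µg/ml, then 11.1 and 11.7 at 150 µg/ml, and the DMSO libraries lay under all treated ones. Its log2 fold change was 0.50 ± 0.16 (SE) at 75 µg/ml (adjusted p = 0.0206) and 0.71 ± 0.16 at 150 µg/ml (adjusted p = 0.00111). The call at 75 µg/ml was lost with DESeq2 (0.48) and without DMSO replicate 2 (0.41) or 75 µg/ml replicate 2 (0.35). PSMA2 was at 0.883 and 1.44 CPM in DMSO, 1.59 and 1.44 at 75 µg/ml, then 1.39 and 1.51 at 150 µg/ml, with a log2 fold change at 150 µg/ml of 0.32 ± 0.40 (adjusted p = 0.531). PSMA6 was likewise not called, with means over all libraries of a few CPM. Means of PSMA3, PSMA4, PSMA5 and PSMA7 over the 6 libraries ran from 176.6 to 466.9 CPM, and every core particle needs all alpha subunits. In the annotation other genes on either strand overlap 24.66% of the exon length of PSMA1, 34.63% of PSMA2 and 14.13% of PSMA6. Reads shared by overlapping genes were not counted, but the strand setting of the counting was not stated. These shares therefore do not say how many reads were lost. PSMC1 and PSMD7, with overlaps of 75.82% and 30.73%, had means over the 6 libraries of 139.4 and 117.4 CPM. PSMB10 and PSMD9, with 34.75% and 22.65%, had means of 9.61 and 4.57 CPM. The part of overlap in the low levels of PSMA1, PSMA2 and PSMA6, and in the rise of PSMA1, was not tested. Without PSMA1, PSMA2, PSMA6 and PSMB3, a choice made after their values were seen, 10 core genes remained. At 150 µg/ml their log2 fold changes ran from -0.23 to 0.05, with 2 called lower and none higher. That is 20% called, beside 51.5% of all genes.

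Of the immunoproteasome genes, PSMB10 alone was measured, and it did not pass the test. PSMB10 (chr16:67934502-67937087), the counterpart of PSMB7, was at 8.26 and 11.1 CPM in DMSO, 11.4 and 9.61 at 75 µg/ml, then 8.52 and 8.71 at 150 µg/ml. The DMSO libraries lay further apart than the group means, and both doses overlapped DMSO. The log2 fold change was 0.12 ± 0.17 (SE) at 75 µg/ml (adjusted p = 0.61 by edgeR) and -0.17 ± 0.17 at 150 µg/ml (adjusted p = 0.429), with a 95% interval of -0.52 to 0.19 at the higher dose. A change of the size of most member changes is therefore not detectable for this gene. PSMB8 was listed at 0 in 5 libraries and at 0.0604 CPM in 150 µg/ml replicate 1. PSMB9 was listed at 2.14 CPM in DMSO replicate 1 and at 0 in the other 5 libraries. Per kb of exon, the level of PSMB10 was 0.02265 and 0.03325 times that of PSMB7 in DMSO. As listed, PSMB8, PSMB9 and PSMB10 together made up 1.44 ± 0.23% (SD, n = 2) of the level per kb of the 6 catalytic genes in DMSO, 1.42 ± 0.14% at 75 µg/ml and 1.2 ± 0.073% at 150 µg/ml. Since PSMB8 and PSMB9 were not measured, these are not shares of the immunoproteasome: they rest almost wholly on PSMB10 except in DMSO replicate 1, where PSMB9 adds 0.698 CPM per kb. In any case 2 libraries against 2 cannot give an exact permutation p under 0.333. Another gene, AC040162.1, overlaps 34.75% of the exon length of PSMB10.

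Of the 17 genes of the regulatory cap, all tested, 3 fell at 75 µg/ml and 7 at 150 µg/ml, where 1 rose. These are 17.6% and 47.1% of the cap genes called, beside 38.6% and 51.5% of all genes. Of the 13 core genes tested, 1 rose and 1 fell at 75 µg/ml (15.4% called) and 1 rose and 2 fell at 150 µg/ml (23.1%). The medians at 150 µg/ml were -0.10 for the cap and -0.02 for the core, and whether cap and core differ was not tested.

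PSMD2, a large scaffold subunit of the base and a docking site for ubiquitin shuttles, had the highest level of all members and fell at both doses. PSMD2 (ENSG00000175166, chr3:184298709-184309054) was at 1945 and 1872 CPM in DMSO, 1568 and 1549 at 75 µg/ml, then 1489 and 1472 at 150 µg/ml. The 3 groups did not overlap, with DMSO highest. It fell by 0.29 ± 0.04 (SE) on the log2 scale at 75 µg/ml (-18.3%, adjusted p = 1.95e-05 by edgeR) and by 0.37 ± 0.04 at 150 µg/ml (-22.4%, adjusted p = 7.08e-07). PSMD1, the other large scaffold, was at 223.5 and 225.9 CPM in DMSO, 203.1 and 197.2 at 75 µg/ml, then 178.2 and 182.6 at 150 µg/ml. Each dose lay under the one before, and the log2 fold changes were -0.17 (adjusted p = 0.011) and -0.32 (adjusted p = 3.06e-05). The call at 75 µg/ml was lost without 75 µg/ml replicate 2 (-0.15) and with total counts (-0.04). PSMD4, the ubiquitin receptor of the base, did not pass at either dose, at 0.05 and 0.06.

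The ATPases of the base, which pull the substrate into the core, had 1 fall among 6 at 75 µg/ml (PSMC1) and 3 at 150 µg/ml (PSMC1, PSMC3 and PSMC5). The share called was 16.7% and 50%, beside 38.6% and 51.5% of all genes. PSMC5 was at 168.7 and 160.6 CPM in DMSO, 154.9 and 154.1 at 75 µg/ml, then 132.4 and 138.6 at 150 µg/ml. Its fall was called at 150 µg/ml (-0.28, adjusted p = 0.000243 by edgeR) and not at 75 µg/ml (-0.09, adjusted p = 0.183). PSMC1 was at 156.4 and 158.3 CPM in DMSO, 134.3 and 126.8 at 75 µg/ml, then 135.4 and 125.0 at 150 µg/ml, so that both doses lay at one level. Its log2 fold change was -0.27 at both doses (adjusted p = 0.00102 and 0.000562). NRDE2 overlaps 75.82% of the exon length of PSMC1, and FTSJ3 overlaps 19.47% of that of PSMC5. With total counts neither passed at 150 µg/ml, at -0.09 for both. PSMC3 fell by 0.12 (adjusted p = 0.0412), a call lost without DMSO replicate 1 (-0.10), either 75 µg/ml library (-0.12 for each) or 150 µg/ml replicate 2 (-0.10), and it stood at 0.07 with total counts. PSMC2 was not called at 150 µg/ml (-0.13, adjusted p = 0.0681) but was called lower with DESeq2 size factors (-0.15), with no filter (-0.14), with the replicate block (-0.12) and without DMSO replicate 2 (-0.17).

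The lid, which holds the deubiquitinating enzyme, had no call among 8 genes at 75 µg/ml, and at 150 µg/ml 1 rose and 2 fell. The share called was 0% and 37.5%, beside 38.6% and 51.5% of all genes. PSMD14 (ENSG00000115233, chr2:161308038-161411717), the metalloprotease that cuts ubiquitin chains off the substrate, was at 161.7 and 158.3 CPM in DMSO, 174.4 and 173.8 at 75 µg/ml, then 200.2 and 178.8 at 150 µg/ml. The groups did not overlap, with DMSO lowest. It rose by 0.24 ± 0.06 (SE) at 150 µg/ml (18.4%, adjusted p = 0.00155 by edgeR) and stood at 0.12 at 75 µg/ml (adjusted p = 0.104). Without 150 µg/ml replicate 1, the highest library, its log2 fold change was 0.16 and did not pass. PSMD6, a structural lid subunit, was at 168.6 and 176.7 CPM in DMSO, 156.2 and 161.9 at 75 µg/ml, then 156.3 and 153.6 at 150 µg/ml. It fell by 0.16 at 150 µg/ml (adjusted p = 0.0177), as did PSMD11 by 0.14 (adjusted p = 0.0192), and with total counts both stood above 0, at 0.03 and 0.05. Both calls were lost without 150 µg/ml replicate 2 (-0.15 and -0.12), that of PSMD6 also without DMSO replicate 2 (-0.13) and that of PSMD11 also without DMSO replicate 1 (-0.12). PSMD3, PSMD7, PSMD8, PSMD12 and PSMD13 lay between -0.09 and 0.12 at 150 µg/ml, with no call. PSMD8 became a higher call without DMSO replicate 1 (0.18), with the replicate block (0.12), with a filter of 5 CPM in 2 libraries (0.16) and with total counts (0.31), and PSMD3 did so with that filter (0.12) and with total counts (0.27). That filter also ended the calls of PSMD6 and PSMD11 (-0.12 and -0.10) and gave PSMD14 one at 75 µg/ml (0.14).

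**Figure D2:**
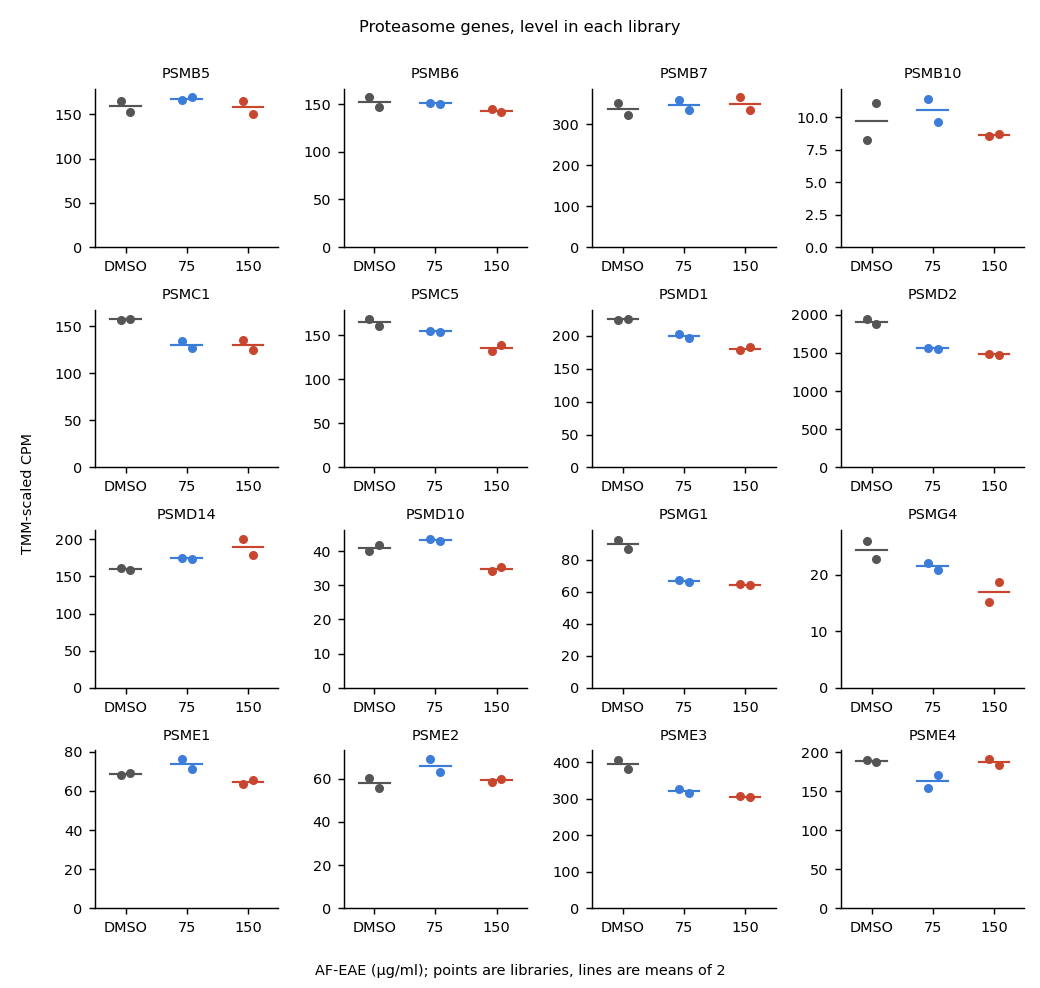
TMM-scaled CPM (y axis, from 0) of 16 proteasome genes in each library (points) by group (x axis: DMSO, 75 and 150 µg/ml AF-EAE), with the mean of the 2 libraries as a line. PSMD2 goes from 1945 and 1872 CPM in DMSO to 1489 and 1472 at 150 µg/ml, while the catalytic genes PSMB5, PSMB6 and PSMB7 stay near their DMSO level and PSME2 is highest at 75 µg/ml.

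The chaperones that assemble the core had the lowest median of the roles with more than 1 gene. Of PSMG1 to PSMG4, 2 fell at 75 µg/ml and 3 at 150 µg/ml, with medians of -0.19 and -0.39. That is 50% and 75% of these genes called, beside 38.6% and 51.5% of all genes. PSMG1 (ENSG00000183527, chr21:39174769-39183851), which pairs with PSMG2 to scaffold the alpha ring, was at 92.5 and 86.9 CPM in DMSO, 67.5 and 66.3 at 75 µg/ml, then 64.7 and 64.2 at 150 µg/ml. All treated libraries lay under both DMSO libraries. Its log2 fold change was -0.42 ± 0.06 (SE) at 75 µg/ml (-25.4%, adjusted p = 5.17e-05 by edgeR) and -0.48 ± 0.06 at 150 µg/ml (-28.2%, adjusted p = 7.29e-06). PSMG4, the partner of PSMG3, was at 26.0 and 22.8 CPM in DMSO, 22.0 and 20.9 at 75 µg/ml, then 15.1 and 18.7 at 150 µg/ml. It fell by 0.53 ± 0.12 at 150 µg/ml (-30.7%, adjusted p = 0.00141), the largest fall among the members, and stood at -0.19 at 75 µg/ml (adjusted p = 0.234). PSMG2 fell by 0.20 at 75 µg/ml (adjusted p = 0.0297), a call that was lost with DESeq2, with total counts and without any 1 of the 4 libraries compared. It fell by 0.31 at 150 µg/ml (adjusted p = 0.00105), and with total counts stood at -0.12 and did not pass. PSMG3 did not pass at either dose, at -0.02 and -0.12. POMP, a further core chaperone outside the symbol rule, did not pass either, with means from 142.4 to 146.9 CPM and log2 fold changes of 0.02 and -0.03 (adjusted p = 0.844 and 0.726).

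The chaperones of the cap base are PSMD5, PSMD9 and PSMD10, which are not part of the finished particle. PSMD10, also known as the oncoprotein gankyrin, was at 40.2 and 41.8 CPM in DMSO, 43.5 and 42.8 at 75 µg/ml, then 34.1 and 35.3 at 150 µg/ml. It was lowest at the higher dose, with -0.24 against DMSO (adjusted p = 0.0188 by edgeR), and stood at 0.07 at 75 µg/ml (adjusted p = 0.491). The fall was not called without DMSO replicate 2 (-0.21), without 150 µg/ml replicate 1 (-0.22) or with total counts (-0.05). PSMD5 was at 130.1 and 121.4 CPM in DMSO, 118.8 and 115.5 at 75 µg/ml, then 114.3 and 111.5 at 150 µg/ml. Its fall of 0.16 at 150 µg/ml (adjusted p = 0.029) was lost without DMSO replicate 1 (-0.11) and without either 150 µg/ml library (-0.18 and -0.14), and turned to 0.03 with total counts. PSMD9 stood at a few CPM and was not called.

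The activators did not move together. PSME3, the nuclear activator that opens the core without ATP, was at 407.2 and 381.4 CPM in DMSO, 327.6 and 317.0 at 75 µg/ml, then 306.7 and 305.2 at 150 µg/ml. Every treated library lay under both DMSO libraries, and it fell by 0.29 ± 0.05 (SE) at 75 µg/ml (-18.3%, adjusted p = 0.00011 by edgeR) and by 0.37 ± 0.05 at 150 µg/ml (-22.4%, adjusted p = 5.05e-06). PSME4, a large single-chain activator, was at 189.6 and 187.5 CPM in DMSO, 154.5 and 170.5 at 75 µg/ml, then 191.0 and 183.5 at 150 µg/ml. It fell by 0.21 at 75 µg/ml (adjusted p = 0.0053), a call lost without 75 µg/ml replicate 1 (-0.15) and with total counts (-0.09), and was at -0.01 at 150 µg/ml (adjusted p = 0.896). PSME1 and PSME2 form the interferon-inducible activator that works with the immunoproteasome. PSME1 was at 68.0 and 69.0 CPM in DMSO, 76.3 and 71.2 at 75 µg/ml, then 63.4 and 65.5 at 150 µg/ml. PSME2 was at 60.1 and 55.4 CPM in DMSO, 68.9 and 63.0 at 75 µg/ml, then 58.6 and 60.0 at 150 µg/ml. Both were highest at 75 µg/ml. PSME2 passed there (0.19 ± 0.07, adjusted p = 0.0491), a call lost under several alternatives such as DESeq2 and limma-voom and without DMSO replicate 2 (0.13) or 75 µg/ml replicate 1 (0.12), and PSME1 did not (0.11, adjusted p = 0.224). The ratio of PSME1 and PSME2 together to PSME3, which does not depend on the scaling of the libraries, was 0.315 and 0.326 in DMSO, 0.443 and 0.424 at 75 µg/ml, then 0.398 and 0.411 at 150 µg/ml. This ratio was not among the planned comparisons. At 150 µg/ml it differed from DMSO through PSME3, with means of 306.0 beside 394.3 CPM. PSME1 was at 64.5 beside 68.5 CPM and PSME2 at 59.3 beside 57.8. The inhibitor PSMF1 was at 164.5 and 163.2 CPM in DMSO, 152.4 and 149.9 at 75 µg/ml, then 158.4 and 154.5 at 150 µg/ml, and passed at neither dose (-0.12 and -0.07, adjusted p = 0.0781 and 0.286).

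Core and cap were also compared as sums within each library, which the scaling between libraries does not touch. This comparison was added after the values of PSMD2 were seen. The sums are not scaled by length. The core sum takes in PSMB3, which was not measured, and PSMA1, PSMA2 and PSMA6, which had low counts. The ratios therefore do not say how much higher the cap genes were than the core genes, only how the ratio stood in each group. The summed CPM of the 17 cap genes was 2.08 and 2.12 times that of the 14 core genes in DMSO, 1.91 and 1.94 times at 75 µg/ml, then 1.95 and 1.99 times at 150 µg/ml. DMSO was higher than both doses. Without PSMD2, the same ratio was 1.33 and 1.36 in DMSO, 1.29 and 1.31 at 75 µg/ml, then 1.34 and 1.36 at 150 µg/ml, where DMSO and the higher dose overlapped. PSMD2 made up 21.0% of all member CPM in both DMSO libraries and 17.9% and 18.2% at 150 µg/ml. The 4 core chaperones stood at 0.0854 and 0.0860 of the core sum in DMSO, 0.0724 and 0.0729 at 75 µg/ml, then 0.0676 and 0.0718 at 150 µg/ml, so that their fall relative to the core did not depend on the scaling. The 3 catalytic genes made up 0.261 and 0.253 of the core sum in DMSO and 0.275 and 0.268 at 150 µg/ml. The members together held 0.829% to 0.883% of all gene counts in a library.

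Levels between genes were compared per kb of exon, using the union of all annotated exons. On this scale PSMD2 was the highest in DMSO at 349.9 CPM per kb, followed by PSMA7 at 288.1, PSMB7 at 188.7, PSMB4 at 147.4 and PSMC3 at 138.9. The medians in DMSO were 54.9 CPM per kb for the 14 core genes and 45.1 for the 17 cap genes. With the median length of coding transcripts as the length, these medians were 167 and 108. Without the 4 core genes of low counts, the core median was 94.9. PSMB10, at 5.23 CPM per kb, lay below every cap gene, the lowest of which was PSMD6 at 18.9.

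**Figure D3:**
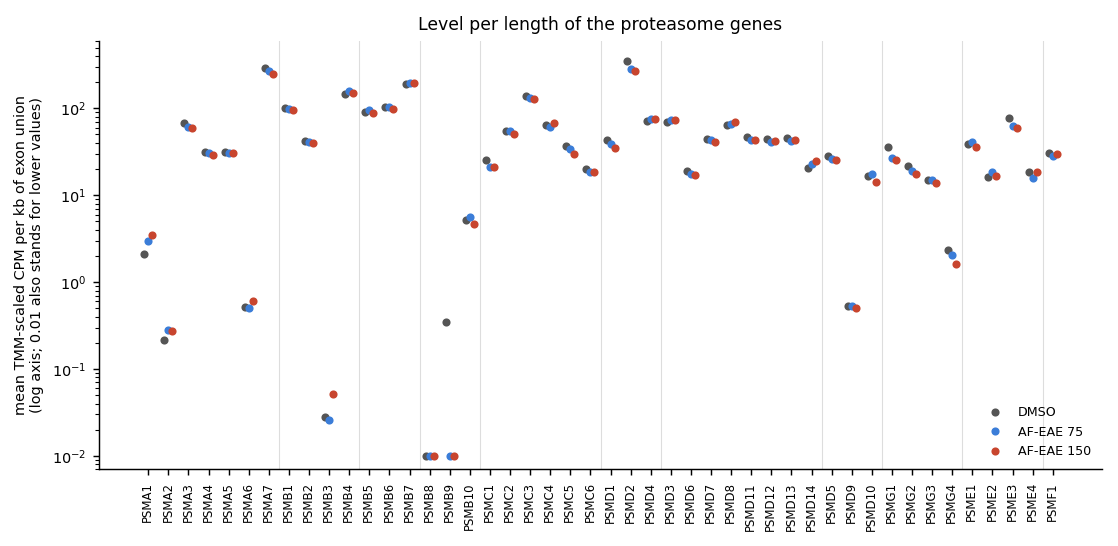
Mean TMM-scaled CPM per kb of exon union (y axis, log scale) of the proteasome genes (x axis, in the order of their roles) in DMSO, at 75 and at 150 µg/ml AF-EAE, with values under 0.01 drawn at 0.01 and the paralogues PSMA8 and PSMB11 left out. PSMB3, PSMB8 and PSMB9 lie near the bottom, PSMA1, PSMA2 and PSMA6 lie under the other alpha genes, and PSMD2 lies highest at 349.9 in DMSO.

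The promoters of the members were searched for sequence motifs tied to 2 of the known routes of proteasome induction, interferon and NFE2L1, and for CCAAT. Windows of 300 bases, from 250 before to 50 after a transcript start, were taken from RefSeq on GRCh38.p14 and covered 42 of the 48 members in 51 windows. The core of the interferon-stimulated response element (ISRE) was searched as GAAA, any 2 bases and GAAA, on both strands. It was found in 7 of the 51 member windows (13.7%) and in 3.57% of all 35116 windows. The stretches around these 7 matches are shown because they include PSME2, which was called higher at 75 µg/ml, and PSMG4, which was called lower at 150 µg/ml. Each is written 5′ to 3′ on the strand of the gene, with the match in capitals.
PSMB10, chr16:67936852-67936881, minus strand: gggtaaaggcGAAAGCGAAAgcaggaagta
PSMB8, chr6:32844032-32844061, minus strand: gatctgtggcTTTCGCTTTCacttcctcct
PSME1, chr14:24136189-24136218, plus strand: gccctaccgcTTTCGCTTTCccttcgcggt
PSME2, chr14:24146619-24146648, minus strand: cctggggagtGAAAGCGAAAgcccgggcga
PSMG4, chr6:3258904-3258933, plus strand: ttccggggccGAAAGCGAAAgcgcgctcgg
PSMA4, chr15:78540155-78540184, plus strand: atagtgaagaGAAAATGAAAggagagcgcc
PSMB4, chr1:151399495-151399524, plus strand: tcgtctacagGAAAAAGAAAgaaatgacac
In PSMB8 and PSME1 the match is on the opposite strand. PSMB10, PSMB8, PSME1, PSME2 and PSMG4 have the same 10 bases, and PSMA4 and PSMB4 have others. Of these 7 genes, PSMB8 was not tested. PSME2 was the only one called at 75 µg/ml, and PSMG4 the only one at 150 µg/ml.

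The other motifs were common. The core of the antioxidant response element, which NFE2L1 binds with small MAF proteins, was searched as TGANNNNGC on both strands and lay in 32 of the 51 member windows (62.7%) and in 41.8% of all windows. The match of PSMD14, the cap gene that rose, is on the opposite strand.
PSMD14, chr2:161308269-161308298, plus strand: ggcgctaagtGCCGCCTCAcagtcctgcca
Of the 14 genes with a window that fell at 150 µg/ml, 7 had such a match, as did 15 of the 21 that were not called. The gamma-activated sequence, searched as TTCNNNGAA, lay in 8 of 51 member windows (15.7%) and 7.66% of all, and CCAAT in 20 (39.2%) and 34.6%. A match is a run of letters and was not tested as a binding site.

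The 2 doses were compared directly as well. Against 75 µg/ml, 1 of the 43 members was higher at 150 µg/ml and 4 were lower, where 22.0% of all genes were called, 9.51% higher and 12.5% lower. PSME4 was the one that was higher, by 0.20 ± 0.06 (SE, adjusted p = 0.0134 by edgeR). PSMD10 was lower by 0.32 on the log2 scale (-19.6%, adjusted p = 0.00905), PSMC5 was at -0.19 (adjusted p = 0.016), PSMD1 at -0.15 (adjusted p = 0.0353) and PSME1 at -0.19 (adjusted p = 0.0451). No core gene passed, and PSMB10 was at -0.29 (adjusted p = 0.247). No member was called without 75 µg/ml replicate 1, and none without 150 µg/ml replicate 1.

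NFE2L1 rose at both doses, while its relative NFE2L3 fell. Of 13 genes of the NFE2L1 pathway, 4 rose and 1 fell at 75 µg/ml, and 8 rose and 1 fell at 150 µg/ml, with medians of 0.15 and 0.39. The list mixes transcription factors with genes that process them or help to break them down, such as SYVN1, SEL1L, KEAP1, BTRC and FBXW7. Those that rose at 75 µg/ml were NFE2L1, MAFG, SYVN1 (0.34) and SEL1L (0.31). The counts and medians therefore give no direction for the activity of the pathway. The list's share of calls was 38.5% at 75 µg/ml, beside 38.6% of all genes, and 69.2% at 150 µg/ml, beside 51.5%. NFE2L1 itself was at 460.4 and 481.2 CPM in DMSO, 757.8 and 747.7 at 75 µg/ml, then 945.2 and 911.7 at 150 µg/ml. The groups did not overlap and rose with the dose, by 0.68 ± 0.04 (SE, adjusted p = 3.14e-09 by edgeR) and 0.98 ± 0.04 (adjusted p = 8.21e-12). MAFG, a small MAF partner, was at 124.8 and 117.6 CPM in DMSO, 148.5 and 156.7 at 75 µg/ml, then 221.4 and 209.7 at 150 µg/ml, with log2 fold changes of 0.33 and 0.83. NFE2L3 went the other way, from 86.9 and 92.4 CPM in DMSO to 52.6 and 53.5 at 75 µg/ml, then 33.6 and 37.7 at 150 µg/ml. It fell by 0.76 and 1.33 on the log2 scale (adjusted p = 3.23e-07 and 1.52e-10). NFE2L2, also on the list, was at 141 and 147 CPM in DMSO, 158 and 154 at 75 µg/ml, then 189 and 188 at 150 µg/ml. DDI2, the protease that activates NFE2L1, and NGLY1, the enzyme that removes its sugars, did not pass at either dose. RNA levels do not show how much of the NFE2L1 protein was processed, which was not measured here.

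**Figure D4:**
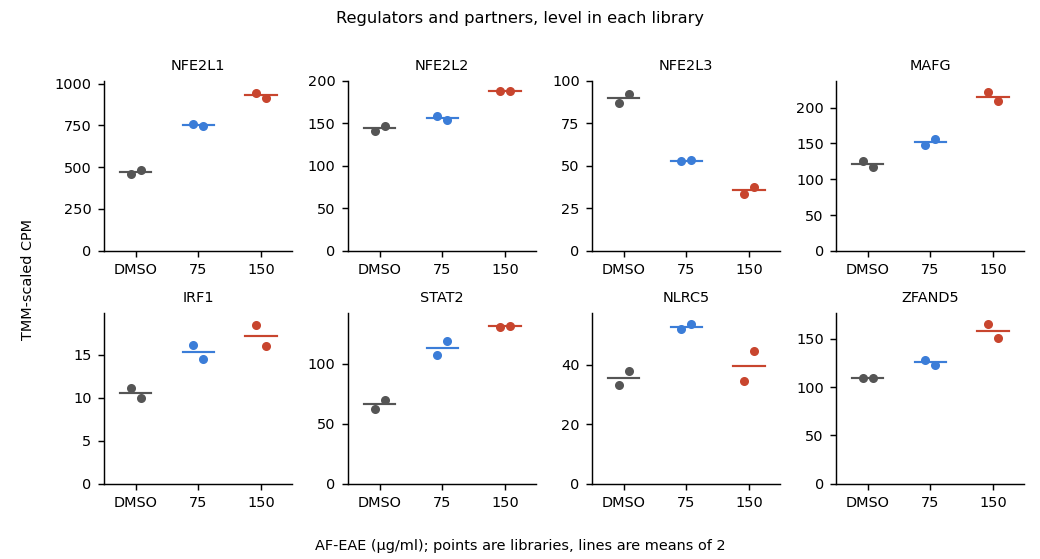
TMM-scaled CPM (y axis, from 0) of 8 genes outside the proteasome in each library (points) by group (x axis: DMSO, 75 and 150 µg/ml AF-EAE), with the mean of 2 libraries as a line. NFE2L1 goes from 460.4 and 481.2 CPM in DMSO to 945.2 and 911.7 at 150 µg/ml, NFE2L3 falls at each dose, and NLRC5 is highest at 75 µg/ml.

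Interferon signalling and class I presentation genes were given because they share regulators with PSMB8, PSMB9, PSMB10, PSME1 and PSME2. Of 18 genes, 14 were tested. TAP1, TAP2 and TAPBP were not, with TAP1 at 0 to 0.0655 CPM. At 75 µg/ml 8 rose and 1 fell, and at 150 µg/ml 6 rose and 2 fell, with medians of 0.38 and 0.26. Of the tested genes 64.3% and 57.1% were called, beside 38.6% and 51.5% of all genes. STAT2 was at 62.5 and 69.98 CPM in DMSO, 107.8 and 119.0 at 75 µg/ml, then 131.3 and 132.1 at 150 µg/ml, with log2 fold changes of 0.78 and 0.99. IRF1, which activates immunoproteasome promoters, was at 11.2 and 10.0 CPM in DMSO, 16.2 and 14.5 at 75 µg/ml, then 18.5 and 16.0 at 150 µg/ml. It rose by 0.53 (adjusted p = 0.00445 by edgeR) and 0.70 (adjusted p = 0.00026). B2M, the class I light chain, rose by 0.33 and 0.29. The call of IRF1 at 75 µg/ml was lost without 75 µg/ml replicate 1 (0.44). NLRC5, the class I transactivator, was at 33.3 and 37.8 CPM in DMSO, 52.1 and 53.6 at 75 µg/ml, then 34.5 and 44.5 at 150 µg/ml. It was highest at the lower dose, as PSME1 and PSME2 were, and passed there (0.57, adjusted p = 0.000297) and not at 150 µg/ml (0.15, adjusted p = 0.245), where it passed without replicate 1 (0.32) and with total counts (0.34).

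Other partners of the proteasome changed in both directions. Of 20 cap-associated factors, shuttles and unfolding factors, 2 rose and 9 fell at 75 µg/ml, and 3 rose and 7 fell at 150 µg/ml. This is 55% and 50% of the list, beside 38.6% and 51.5% of all genes. ZFAND5, which stimulates the proteasome, was at 109.2 and 109.8 CPM in DMSO, 127.8 and 123.5 at 75 µg/ml, then 165.4 and 150.7 at 150 µg/ml, a log2 fold change of 0.20 (adjusted p = 0.0124 by edgeR) and 0.53 (adjusted p = 5.99e-07). The call at 75 µg/ml was lost without 75 µg/ml replicate 1 (0.16). RAD23B, a shuttle that brings ubiquitinated proteins to the cap, was at 392.8 and 376.1 CPM in DMSO, 296.1 and 310.2 at 75 µg/ml, then 285.3 and 294.4 at 150 µg/ml, with log2 fold changes of -0.34 and -0.41. UBE3C, a ubiquitin ligase of the cap, fell by 0.38 and 0.35. RPS27A, a ubiquitin and ribosomal protein fusion, fell by 0.18 and 0.29, and UBA1, the main ubiquitin-activating enzyme, fell by 0.18 and 0.20. With total counts, RPS27A stood at -0.11 and UBA1 at -0.01 at 150 µg/ml and neither passed, and the call of RPS27A at 75 µg/ml was lost without DMSO replicate 1 (-0.07) or 75 µg/ml replicate 2 (-0.14).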

How the data were processed

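The authors deposited 1 file of raw read counts per gene and library. HISAT2 2.2.1, HTSeq 2.0.2 and the build hg38 are named, per the submitters' processing notes; counting options, strand setting and annotation release were not stated. Summary rows were left out: reads outside genes (6.32% to 7.98%) and reads in overlapping genes (10.95% to 11.48%). The test was that of edgeR 4.0.16 under R 4.3.3 (TMM, default filter on low counts, quasi-likelihood F-test on all 6 libraries, Benjamini-Hochberg over 15589 genes, adjusted p under 0.05). The filter removed 45062 rows. SEs were derived from the F statistic, and the 95% intervals from the SE. DESeq2 1.42.0 and limma 3.58.1 were alternatives. Lengths, coordinates and overlaps are from GENCODE 29, and promoter windows from RefSeq. All overlaps were taken on either strand. The procedure was tested on simulated data. Named genes are the catalytic members, the 2 largest changes per role at 150 µg/ml, and the 3 smallest p-values per other list, plus NFE2L1, IRF1, NLRC5, TAP1 and POMP (a few of these were left out of the text); other names were chosen after their values were seen. Members and lists were chosen with earlier results of these data known. Floors cover counting error only.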

Additional observations from a re-analysis of the deposited data

How the results depend on the processing

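The counts of members called at 75 µg/ml, at 150 µg/ml and between the doses were 10 (2 higher, 8 lower), 17 (2 and 15) and 5 (1 and 4). With total counts in place of TMM they split into 10 higher and 3 lower, 14 and 5, and 4 and 1. Under that scaling 19 of the 43 members' log2 fold changes changed sign at 75 µg/ml, 21 at 150 µg/ml and 10 between the doses. Genes that changed sign against DMSO at 150 µg/ml and were called under TMM or total counts, POMP included, went to 0.17 for PSMA5, 0.14 for PSMB1, 0.18 for PSMB5, 0.069 for PSMC3, 0.033 for PSMD5, 0.032 for PSMD6, 0.052 for PSMD11, 0.18 for PSME4, 0.12 for PSMF1 and 0.16 for POMP; the scaling itself moved the median of all genes by a like amount. The count higher at 75 µg/ml was 1 with DESeq2 size factors, no filter, limma-voom or a fit of only the 2 groups, 0 with DESeq2 and 4 with a filter of 5 CPM in 2 libraries, which also gave 4 higher at 150 µg/ml. At an adjusted p of 0.01 the calls were 5, all lower, at 75 µg/ml and 1, lower, between the doses, with 0 higher in both. With a log2 fold change of at least 0.5 as well, 1 call was left at 75 µg/ml (higher, 0 lower), 2 at 150 µg/ml (1 and 1) and 0 between the doses.

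Leaving out 1 library at a time gave 7 to 11 calls at 75 µg/ml (0 to 2 higher, 6 to 10 lower), 12 to 17 at 150 µg/ml (1 to 3 higher, 10 to 15 lower) and 0 to 6 between the doses (0 to 2 higher, 0 to 5 lower); the 0 came without 75 µg/ml replicate 1 and without 150 µg/ml replicate 1. Over all genes, calls between the doses fell from 3433 to 1990 without 75 µg/ml replicate 1 and to 1507 without 150 µg/ml replicate 1. All-gene calls at an adjusted p of 0.01 were 1883 between the doses, and with a log2 fold change of at least 0.5 they were 2610, 4514 and 927. The replicate number as a block gave 2 higher and 8 lower, 3 and 16, and 1 and 6. After each gene's group mean was taken off, same-numbered libraries of different groups correlated at 0.00373 to 0.059 across genes. This does not settle whether the numbers mark pairs. Without length scaling, PSMB8, PSMB9 and PSMB10 as listed made up 1.31% of the 6 catalytic genes at 150 µg/ml, which is not a share of the immunoproteasome. DESeq2 size factors, no filter, limma-voom and a fit of the 2 groups alone kept every other count of members within 1.5 times. The cause of these differences was not tested. With 2 libraries per group, changes of over 2 standard errors were not always called (PSMD8 at 150 µg/ml, 0.12 with an SE of 0.052), and PSMB3, PSMB8 and PSMB9 were not measured.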
